A study of Mus musculus with 6 samples.

Results

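The 36 genes described here are the enzymes and transporters of glycolysis, the regulators that set its flux, and a set of sensors and targets of the hypoxia response: 18 glycolytic enzymes, 5 glucose or lactate transporters, 3 flux regulators, 4 hypoxia sensing genes and 6 hypoxia-induced genes. They were taken by symbol from 35865 annotated genes, and all 36 passed the low-count filter that left 16386 genes for testing. The study sequenced RNA of cardiac macrophages sorted from digested hearts of C57BL/6J mice, and the labels give donor haematopoietic progenitor cells as the origin of the macrophages. There were 3 libraries labelled Tet2 KO (Tet2-deficient macrophages) and 3 labelled Tet2 WT (Tet2-sufficient macrophages), and all 6 share the strain and the donor-derived origin. Age, sex and the sort gate are not given in the sources used here, nor is the part of Tet2 that was deleted. Whether the libraries of 1 genotype are separate animals is not stated, so each p-value reflects only how these libraries spread, which can be technical.

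Glycolysis splits glucose into pyruvate in the cytosol, and lactate dehydrogenase turns pyruvate into lactate, which leaves the cell through monocarboxylate transporters. Under low oxygen the prolyl hydroxylases stop marking the HIF alpha subunits for destruction. The stabilised HIF factors induce glucose transporters, most glycolytic enzymes, a kinase that inhibits pyruvate dehydrogenase, and secreted factors such as adrenomedullin. Macrophages raise glycolysis when they are activated by inflammatory signals, through HIF-1 among others, also with oxygen at hand.

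Of the 36 genes, 8 were called higher in Tet2 KO, namely Hk3, Pfkl, Aldoc, Eno1, Slc2a6, Slc16a3, Pfkfb3 and Pfkfb4, and 5 were called lower, namely Adm, Egln3, Eno2, Ldhb and Ndrg1. A gene was called at an edgeR adjusted p under 0.05, adjusted over all 16386 tested genes. By group, 4 of 18 glycolytic enzymes rose and 2 fell (median log2 fold change 0.26), 2 of 5 transporters rose (0.27), 2 of 3 flux regulators rose (0.70), 1 of 4 hypoxia sensing genes fell (-0.46) and 2 of 6 hypoxia-induced genes fell (-0.23). The share called higher was 22.2% of the members beside a background of 6.11% of all tested genes, and the share called lower was 13.9% beside a background of 10.1%. Over all members the median log2 fold change (Tet2 KO over Tet2 WT) was 0.26, against 0.00 over all tested genes. In normalised counts (CPM), every Tet2 KO library lay above every Tet2 WT library in 16 of the 36 members, which 16.4% of all tested genes did. In 6 members every Tet2 KO library lay below, which 18.1% of all tested genes did, and the groups overlapped in the other 14 members. In TPM, a per-length measure, Hk3, Gpi1, Pgk1, Pgam1, Pkm, Slc2a1 and Pfkfb3 of the higher members overlapped, as did Pfkm of the lower ones. Slc16a1 and Epas1 were lower in every Tet2 KO library in TPM but not in CPM. Slc16a3, Pfkfb3, Pfkfb4 and Adm were the 4 members whose call held whichever single library was left out. No member was called higher, beside 0.116% of all tested genes, when the libraries were scaled to the summed pan-macrophage markers. That setting is described with the markers.

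Sequences upstream of Adm, Egln3, Pfkfb4 and Slc16a3 are printed first because HIF factors act on short motifs near start sites. Adm and Egln3 had the largest falls of the set (log2 fold change -2.84 and -2.46). Slc16a3 (0.90) and Pfkfb4 (0.88) had the largest rises among the called members after Aldoc (1.52). The windows of Aldoc and Eno2 (-1.80) are not printed, and that of Eno2 held no such motif. Each is the RefSeq window of 300 bases (GRCm38.p6) from 250 bases before to 50 bases after the start of transcription, written 5′ to 3′ on the gene's own strand. The Adm window is chr7:110627407-110627706 on the plus strand. The Egln3 window is chr12:54203825-54204124 on the minus strand. The Pfkfb4 window is chr9:108991652-108991951 on the plus strand, and the Slc16a3 window is chr11:120948817-120949116 on the plus strand. Capitals mark the core of the hypoxia response element, searched as ACGTG or GCGTG on both strands, which reads CACGT or CACGC where it lies on the other strand.
Adm: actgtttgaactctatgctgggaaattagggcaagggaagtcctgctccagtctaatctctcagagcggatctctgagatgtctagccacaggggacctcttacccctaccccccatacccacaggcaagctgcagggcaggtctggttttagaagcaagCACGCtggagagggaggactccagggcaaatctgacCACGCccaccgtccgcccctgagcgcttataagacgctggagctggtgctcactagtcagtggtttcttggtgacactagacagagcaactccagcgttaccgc
Egln3: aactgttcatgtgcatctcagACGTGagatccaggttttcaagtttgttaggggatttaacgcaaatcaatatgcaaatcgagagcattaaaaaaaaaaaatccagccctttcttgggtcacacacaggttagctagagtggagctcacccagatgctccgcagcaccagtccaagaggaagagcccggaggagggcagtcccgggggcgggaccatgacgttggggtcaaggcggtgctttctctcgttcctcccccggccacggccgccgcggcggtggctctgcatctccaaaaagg
Pfkfb4: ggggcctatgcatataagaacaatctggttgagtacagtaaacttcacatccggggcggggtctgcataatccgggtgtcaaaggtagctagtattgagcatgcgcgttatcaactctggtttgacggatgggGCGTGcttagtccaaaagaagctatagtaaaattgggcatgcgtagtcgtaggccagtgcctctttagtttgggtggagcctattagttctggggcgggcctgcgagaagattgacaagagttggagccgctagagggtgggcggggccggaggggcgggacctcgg
Slc16a3: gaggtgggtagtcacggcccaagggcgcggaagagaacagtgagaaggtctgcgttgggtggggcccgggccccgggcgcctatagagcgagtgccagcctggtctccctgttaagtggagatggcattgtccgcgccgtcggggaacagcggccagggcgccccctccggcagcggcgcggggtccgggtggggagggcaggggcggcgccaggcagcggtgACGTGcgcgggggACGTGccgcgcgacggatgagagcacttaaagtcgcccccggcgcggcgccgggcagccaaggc
The Adm and Slc16a3 windows held 2 matches each, and the Egln3 and Pfkfb4 windows 1 each, so genes that were called in opposite directions carried the same letters. At least 1 match was present in 30 of the 33 members with a RefSeq window (90.9%), beside 46.7% of all 27025 genes with a window. Counted by window, 39 of 48 member windows held a match (81.2%), beside 43.8% of 32851 windows of all genes. The member windows were richer in G and C, at a median of 62.7% against 52.7% of all windows, and its part in the difference was not tested. CACGTG is read on both strands and so counts as 2 matches. All 8 members called higher had a match, and so had 3 of the 4 members called lower that have a window. Eno2 was the exception among those called lower, and Tpi1 and Gpi1 were the other two members with none. Slc2a3, Epas1 and Ndrg1 had no window in the table. A match is a description of the sequence and not a bound site.

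**Figure D1:**
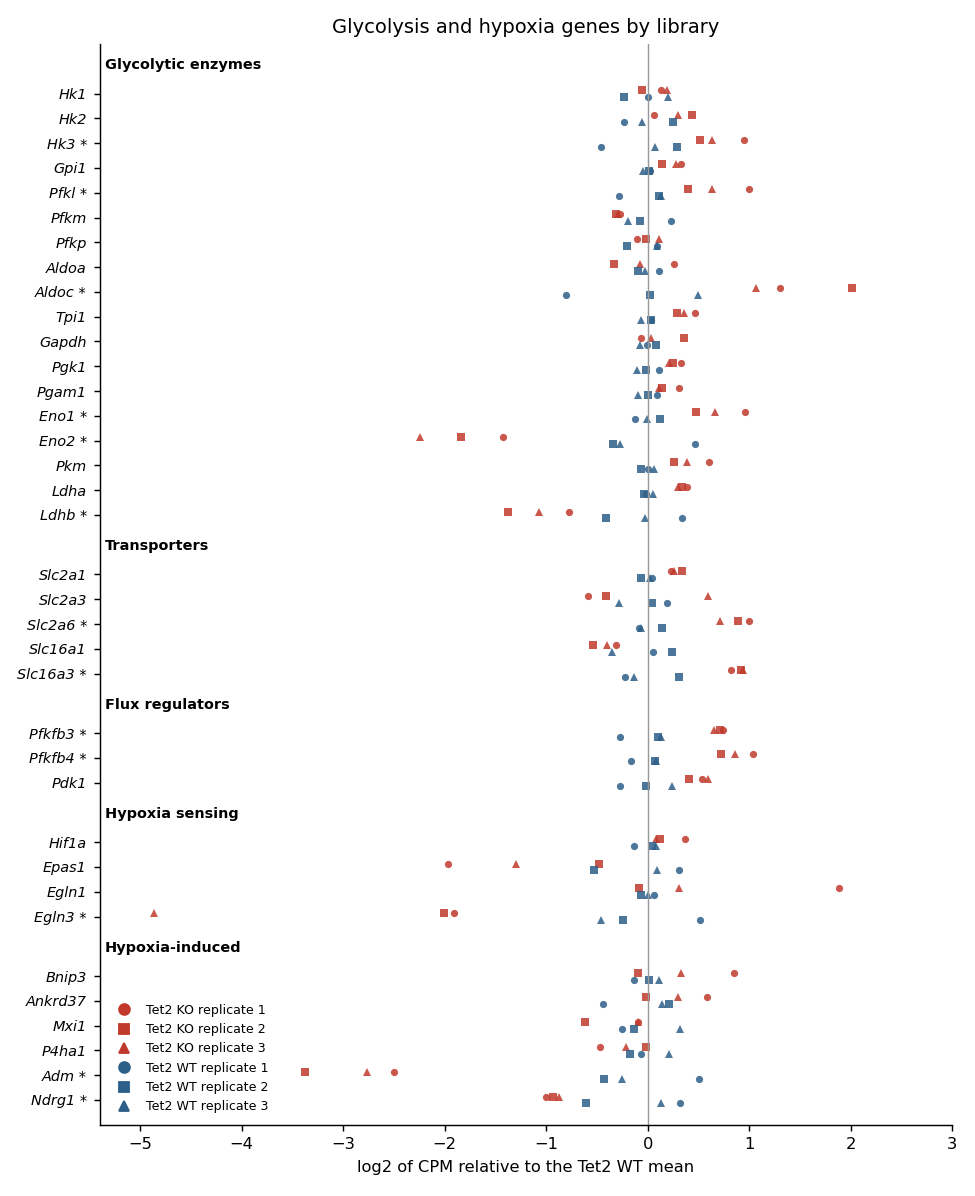
Each point is 1 library: the log2 of a gene's normalised count (CPM) divided by its mean over the Tet2 WT libraries, for Tet2 KO replicates (red, upper in each row) and Tet2 WT replicates (blue, lower in each row), with the replicate given by the symbol and an asterisk on the 13 called genes. The Adm, Eno2 and Egln3 points of Tet2 KO lie far to the left, while most enzymes lie within 1 unit of the line.

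The plot of members by library shows levels relative to Tet2 WT, and the text below gives the levels themselves as TMM-normalised CPM unless TPM (a per-length measure of transcript abundance that is scaled to 1 total within each library) is named. Coordinates are GRCm38. The libraries held 37349505, 53586246 and 55771087 estimated counts in Tet2 KO replicates 1 to 3, and 49883028 to 53586473 in the Tet2 WT libraries. Tet2 itself was at 81.2, 82.6 and 78.2 CPM in Tet2 KO against 57.5, 76.1 and 60.8 CPM in Tet2 WT, and its summed count was not lower in Tet2 KO (log2 fold change 0.32 ± 0.14 SE, edgeR adjusted p = 0.159). Of 16 pan-macrophage markers 14 were called higher in Tet2 KO, with a median log2 fold change of 0.74. Their CPM summed within each library was 39400, 32900 and 36000 in Tet2 KO against 21000, 28500 and 24500 in Tet2 WT. All 18 fibroblast markers were called lower in Tet2 KO (median log2 fold change -3.01), and their summed CPM was 4170, 2270 and 3930 in Tet2 KO against 32500, 17300 and 27600 in Tet2 WT. Neither sum overlapped between the groups (two-sided p = 0.1 each by an exact permutation test, the smallest that 3 against 3 libraries allow, adjusted to 0.2 over 10 marker lists). In bulk RNA, fewer cells of a type and less RNA per cell cannot be told apart.

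Glucose enters the pathway by way of hexokinase, which phosphorylates it. Hk3 (chr13:55005985-55021385, minus strand), the hexokinase typical of myeloid cells, was at 74.4, 55.0 and 59.7 CPM in Tet2 KO against 28.0, 47.2 and 40.4 CPM in Tet2 WT. The groups did not overlap, and Hk3 rose by 0.71 ± 0.20 on the log2 scale (SE, edgeR adjusted p = 0.0395). Its TPM did overlap, at 47.3, 28.7 and 34.8 in Tet2 KO against 23.4, 32.8 and 25.7 in Tet2 WT. Leaving out Tet2 KO replicate 1 or 3, or Tet2 WT replicate 1 or 3, ended the call (edgeR adjusted p between 0.0839 and 0.122), as did length-scaled TPM counts (0.0936). Hk3 overlaps Unc5a on the opposite strand, which averaged 6.59 CPM. Hk1, the broadly expressed hexokinase, had 68.5, 59.9 and 71.1 CPM in Tet2 KO against 62.5, 53.0 and 72.0 CPM in Tet2 WT, and was not called (0.09 ± 0.15, edgeR adjusted p = 0.751). Hk2, the inducible hexokinase, had 21.7, 28.2 and 25.7 CPM in Tet2 KO against 17.7, 24.7 and 20.1 CPM in Tet2 WT and was not called either (0.28 ± 0.18, edgeR adjusted p = 0.357). Both sets of values overlapped.

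Phosphofructokinase catalyses the committed step and exists as liver, muscle and platelet isozymes. The liver type, Pfkl (chr10:77986947-78010083, minus strand), was at 123, 80.9 and 95.2 CPM in Tet2 KO against 50.5, 66.4 and 67.4 CPM in Tet2 WT. No library of one group reached the other, and Pfkl rose by 0.70 ± 0.18 (log2, edgeR adjusted p = 0.0262). The call was lost without Tet2 KO replicate 1 or 3 or Tet2 WT replicate 1 (edgeR adjusted p between 0.068 and 0.099). The platelet type, Pfkp, was at 110, 117 and 128 CPM in Tet2 KO against 126, 103 and 126 CPM in Tet2 WT (0.00 ± 0.13, edgeR adjusted p = 0.995) and overlapped. The muscle type, Pfkm, had 7.69, 7.45 and 7.55 CPM in Tet2 KO, below the 10.9, 8.81 and 8.11 CPM in Tet2 WT in every library, and was not called (-0.29 ± 0.21, edgeR adjusted p = 0.429).

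In the middle of the pathway Aldoc was the enzyme that was called, and several others were higher in every Tet2 KO library without a call. Aldoc (chr11:78322968-78327781, plus strand), the brain-type aldolase and a minor isozyme here, rose by 1.52 ± 0.42 (log2, edgeR adjusted p = 0.0339), with 4.78, 7.86 and 4.08 CPM in Tet2 KO against 1.11, 1.98 and 2.74 CPM in Tet2 WT. Its call was lost without Tet2 KO replicate 1 or 2 and without Tet2 WT replicate 1 or 2 (edgeR adjusted p between 0.0568 and 0.116). The main aldolase, Aldoa, had 590, 391 and 467 CPM in Tet2 KO against 533, 461 and 483 CPM in Tet2 WT, with full overlap (-0.03 ± 0.16). Tpi1, triosephosphate isomerase, was higher in every Tet2 KO library, at 213, 189 and 198 CPM against 158, 158 and 148 CPM in Tet2 WT, but its edgeR adjusted p was 0.0579 (0.37 ± 0.12). The other enzymes of this stretch were not called: the isomerase Gpi1 (0.25 ± 0.12), the kinase Pgk1 (0.26 ± 0.12), the mutase Pgam1 (0.19 ± 0.12) and Gapdh (0.12 ± 0.15), with edgeR adjusted p between 0.173 and 0.663. Of these Gpi1, Pgk1 and Pgam1 did not overlap between the groups in CPM, and Gapdh did, while in TPM each of them overlapped. Words of 31 bases that also occur in other genes made up 54.7% of Pgk1, 37.1% of Pgam1, 28.1% of Gapdh and 14.1% of Gpi1. Gapdh, often used as a reference gene, ranged from 724 to 970 CPM in Tet2 KO and from 719 to 799 CPM in Tet2 WT.

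Enolase, which makes phosphoenolpyruvate, showed opposite changes of its member isozymes Eno1 and Eno2. Eno3, which is no member, was at 12.3 ± 2.42 CPM in Tet2 KO against 10.4 ± 2.29 CPM in Tet2 WT (SD, n = 3 each), without a call. Eno1 (chr4:150236721-150248879, plus strand), the ubiquitous alpha-enolase, was at 988, 706 and 808 CPM in Tet2 KO against 467, 553 and 506 CPM in Tet2 WT. All 3 Tet2 KO libraries were higher, and Eno1 rose by 0.71 ± 0.16 (log2, edgeR adjusted p = 0.013), a call at its limit without Tet2 WT replicate 1 (0.0501). Eno2 (chr6:124760053-124769673, minus strand), the neuronal gamma-enolase and a HIF target, was at 1.81, 1.36 and 1.03 CPM in Tet2 KO against 6.74, 3.83 and 4.03 CPM in Tet2 WT. It fell by 1.80 on the log2 scale (SE 0.38, edgeR adjusted p = 0.0111; without Tet2 WT replicate 1, 0.0664). Of the 31-base words in Eno1 transcripts, 28.5% also occur in other genes, Eno1b above all, so the estimated count depends on how shared reads were divided, while for Eno2 the share was 0.786%. Scaled to the pan-macrophage markers, Eno1 stood at -0.01 ± 0.14 and Eno2 at -2.57 ± 0.46.

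Pyruvate kinase and lactate dehydrogenase end the pathway. Pkm, the pyruvate kinase of most tissues, was at 561, 441 and 482 CPM in Tet2 KO against 370, 351 and 385 CPM in Tet2 WT, with no overlap and an edgeR adjusted p of 0.059 (0.42 ± 0.13). Ldha, the subunit that favours lactate formation, was likewise higher in each Tet2 KO library, at 485, 466 and 456 CPM against 366, 360 and 384 CPM in Tet2 WT, and was not called (0.34 ± 0.12, edgeR adjusted p = 0.0767). Ldhb (chr6:142490249-142507957, minus strand), the heart-type subunit, was at 12.7, 8.34 and 10.3 CPM in Tet2 KO against 27.5, 16.3 and 21.3 CPM in Tet2 WT. Ldhb fell by 1.06 (log2, SE 0.24, edgeR adjusted p = 0.0145) and lost the call without Tet2 KO replicate 3 (0.056) or Tet2 WT replicate 1 (0.0753). Words of 31 bases shared with other genes made up 33.0% of Ldhb, all with Gm5514, 22.9% of Pkm and 19.6% of Ldha.

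Pkm makes its M1 and M2 proteins by choosing 1 of a pair of exons, and the M2 form is the usual one in macrophages and proliferating cells. The exons lie next to each other on the plus strand of GRCm38, the M1-type at chr9:59675029-59675195 and the M2-type at chr9:59675568-59675734. They are printed with capitals at the bases where they differ.
Pkm M1-type exon: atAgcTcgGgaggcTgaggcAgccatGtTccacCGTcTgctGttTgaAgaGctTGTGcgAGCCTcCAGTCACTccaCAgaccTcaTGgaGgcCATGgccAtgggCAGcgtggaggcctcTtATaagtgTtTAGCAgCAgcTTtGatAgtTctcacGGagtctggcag
Pkm M2-type exon: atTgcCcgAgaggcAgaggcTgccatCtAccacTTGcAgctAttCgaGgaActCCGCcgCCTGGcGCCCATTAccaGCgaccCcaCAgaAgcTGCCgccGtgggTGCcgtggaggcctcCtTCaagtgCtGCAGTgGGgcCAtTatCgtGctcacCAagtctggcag
Both are 167 bases long, and 103 bases are identical and 64 differ (61.7% identity). Each exon was carried by 1 protein-coding transcript in the files. The M2-type transcript had 284, 217 and 243 TPM in Tet2 KO against 196, 189 and 219 TPM in Tet2 WT. The M1-type transcript had 33.2, 21.5 and 27.9 TPM in Tet2 KO against 30.6, 23.0 and 29.3 TPM in Tet2 WT. M2-type transcripts thus predominated in every library. The M1-type share of the 2 was 10.5, 9.01 and 10.3% in Tet2 KO against 13.5, 10.9 and 11.8% in Tet2 WT, or 9.93% ± 0.799 and 12.1% ± 1.32 (SD, n = 3 each), with no overlap (two-sided p = 0.1 by an exact permutation test, the smallest possible). The heart's muscle cells carry the M1 form. The summed cardiomyocyte markers were at 121 to 208 CPM in Tet2 KO against 161 to 193 CPM in Tet2 WT and overlapped. The part of these or other cells in the M1-type share was not tested.

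Summed over the member isozymes in TPM, most steps of the pathway overlapped between the genotypes. Enolase was the step with the largest ratio, at 697, 481 and 574 TPM in Tet2 KO against 365, 420 and 417 TPM in Tet2 WT (ratio 1.46), with no overlap (two-sided p = 0.1 by an exact permutation test), a direction that Eno1 did not keep when scaled to the pan-macrophage markers (-0.01). Triosephosphate isomerase and the 3 member glucose transporters also did not overlap, with ratios of 1.16 and 1.15 and the same p. For the other 10 sums the libraries of the groups overlapped, with ratios from 0.864 for aldolase to 1.34 for the lactate transporters. Per length, Gapdh, Eno1, Aldoa, Ldha and Pkm were the most abundant members in both genotypes, at 866, 583, 480, 426 and 292 TPM in Tet2 KO against 891, 397, 559, 377 and 246 TPM in Tet2 WT. Egln3 was the least abundant in Tet2 KO, at 0.310 TPM against 1.90 TPM in Tet2 WT.

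Among the transporters, Slc2a6 (chr2:27021363-27027998, minus strand), a hexose transporter found in lysosomal membranes and induced in inflammatory macrophages, was at 13.3, 12.3 and 10.9 CPM in Tet2 KO against 6.26, 7.35 and 6.34 CPM in Tet2 WT. Slc2a6 rose by 0.87 ± 0.20 (log2, edgeR adjusted p = 0.0174), a call that was lost without Tet2 KO replicate 1 (0.0526), Tet2 WT replicate 1 (0.0687) or Tet2 WT replicate 3 (0.0599). Slc2a1, the basal glucose transporter GLUT1, had 29.7, 32.0 and 30.3 CPM in Tet2 KO against 26.2, 24.2 and 25.8 CPM in Tet2 WT. Those values did not overlap, but Slc2a1 was not called (0.27 ± 0.13, edgeR adjusted p = 0.208). Slc2a3, the high-affinity GLUT3, had 4.81, 5.45 and 10.9 CPM in Tet2 KO against 8.26, 7.46 and 5.95 CPM in Tet2 WT, so that Tet2 KO replicate 3 was above and the other two Tet2 KO libraries below all of Tet2 WT (-0.03 ± 0.33, edgeR adjusted p = 0.963).

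Lactate leaves through the monocarboxylate transporters. Slc16a3 (chr11:120948480-120960868, plus strand), which encodes MCT4, the exporter of glycolytic cells and a HIF target, was at 23.6, 25.2 and 25.6 CPM in Tet2 KO against 11.4, 16.5 and 12.1 CPM in Tet2 WT. The Tet2 KO libraries lay within a narrow band well above Tet2 WT, and Slc16a3 rose by 0.90 ± 0.18 (log2, edgeR adjusted p = 0.00895, at most 0.0431 with any 1 library left out). Slc16a1, which encodes the bidirectional MCT1, had 11.0, 9.40 and 10.3 CPM in Tet2 KO against 14.1, 16.1 and 10.7 CPM in Tet2 WT and was not called (-0.42 ± 0.21, edgeR adjusted p = 0.224). No 31-base word of either gene was shared with another gene.

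Of the 3 flux regulators, Pfkfb4 and Pfkfb3 rose. Pfkfb4 (chr9:108991778-109032228, plus strand) and Pfkfb3 (chr2:11471433-11554077, minus strand) encode phosphofructokinase-2 enzymes, which make and break fructose 2,6-bisphosphate, the activator of phosphofructokinase. Pfkfb4 was at 177, 142 and 156 CPM in Tet2 KO against 76.8, 90.3 and 90.8 CPM in Tet2 WT. It rose by 0.88 ± 0.13 (log2, edgeR adjusted p = 0.00202, at most 0.0109 with any 1 library left out). Pfkfb3, the strongly activating isozyme, was at 65.5, 63.9 and 61.5 CPM in Tet2 KO against 32.4, 42.1 and 42.9 CPM in Tet2 WT. It rose by 0.70 ± 0.14 (log2, edgeR adjusted p = 0.00891, at most 0.0353 with any 1 library left out). Scaled to the pan-macrophage markers, Pfkfb4 stood at 0.16 ± 0.16 and Pfkfb3 at 0.00 ± 0.19, and neither was called.

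The transcripts behind these sums differed in kind. For Pfkfb4, 10.7% of its TPM in Tet2 KO against 13.3% in Tet2 WT lay on protein-coding transcripts. Most of it was on ENSMUST00000198763.1, a transcript annotated as non-coding, at 76.1, 58.8 and 65.8 TPM in Tet2 KO against 34.0, 39.1 and 38.1 TPM in Tet2 WT. The coding transcript ENSMUST00000198140.4 was also higher in every Tet2 KO library, at 11.4, 8.59 and 10.7 TPM against 6.04, 6.86 and 7.87 TPM in Tet2 WT. For Pfkfb3, whose total TPM overlapped between the groups (40.2, 54.4 and 42.7 in Tet2 KO, 38.4, 43.7 and 40.2 in Tet2 WT), short non-coding transcripts carried much of the TPM and overlapped. Its coding transcript ENSMUST00000114846.8 did not overlap, at 11.7, 8.54 and 7.76 TPM in Tet2 KO against 2.92, 6.70 and 3.56 TPM in Tet2 WT. With length-scaled TPM counts Pfkfb3 was not called (log2 fold change 0.32, edgeR adjusted p = 0.25), nor was it by limma on log2 TPM (adjusted p = 0.574 and 0.572 with pseudocounts of 1 and 0.1), while Pfkfb4 and Slc16a3 were called in all of these. Pdk1, the kinase that inhibits pyruvate dehydrogenase, had 24.5, 22.4 and 25.5 CPM in Tet2 KO against 14.0, 16.7 and 19.9 CPM in Tet2 WT, without overlap and without a call (0.52 ± 0.17, edgeR adjusted p = 0.0723).

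Isozyme shares do not depend on how the libraries are scaled against each other, but they can depend on the mix of cells. The fibroblast markers differed between the genotypes, and their part in the shares was not tested. A gene's share of the TPM summed over its family's members in this set was compared for 16 shares in 10 families. Each was tested by an exact two-sided permutation test with a smallest p of 0.1, or 0.2 after adjustment over the 16. In 8 of the 16 the groups did not overlap, beside 34.5% of all tested genes that did not overlap in CPM in either direction. That percentage is for single genes. None was computed for shares, which are tied to each other within a family. With shares of summed CPM, which is not per length, 11 of the 16 did not overlap, and on protein-coding transcripts alone 10 of the 16. In 7 of them, those of Pfkl, Slc2a6, Aldoa, Eno1, Ldha, Slc16a1 and Egln1, the groups did not overlap in any of the 3 measures, in 1 direction each. The liver-type Pfkl made up 39.8, 33.8 and 31.1% of phosphofructokinase TPM in Tet2 KO against 20.9, 31.1 and 29.0% in Tet2 WT. Tet2 KO replicate 3 and Tet2 WT replicate 2 both stood at 31.1% at this rounding, so the gap between the groups was narrow. Pfkm was the reverse, at 3.57, 3.21 and 2.93% in Tet2 KO against 5.06, 4.89 and 3.72% in Tet2 WT. In TPM Pfkp was the largest isozyme in every library, at 61.9% ± 4.78 in Tet2 KO against 68.4% ± 5.13 in Tet2 WT (SD, n = 3 each), with overlap. On protein-coding transcripts Pfkp did not overlap, at 46.4, 53.6 and 55.5% in Tet2 KO against 67.0, 58.6 and 63.0% in Tet2 WT, and Pfkl was the larger of them in Tet2 KO replicate 1 (47.7%). Pfkp was also lower in each Tet2 KO library as a share of CPM, while Pfkm overlapped on protein-coding transcripts.

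Among the glucose transporters, Slc2a6 took 32.6, 28.2 and 25.3% of the TPM in Tet2 KO against 18.6 to 22.0% in Tet2 WT. Slc2a1 remained the largest, at 55.8% ± 3.75 in Tet2 KO against 61.8% ± 3.78 in Tet2 WT (SD, n = 3 each), and overlapped, as did Slc2a3. In TPM all hexokinase shares overlapped: Hk3 at 57.5, 45.4 and 50.1% in Tet2 KO against 41.1, 53.9 and 39.4% in Tet2 WT, and Hk1 at 30.8, 33.1 and 37.5% in Tet2 KO against 46.5, 33.9 and 45.4% in Tet2 WT. Hk2 held the smallest hexokinase share, at 15.2% ± 5.42 in Tet2 KO against 13.3% ± 1.68 in Tet2 WT (SD, n = 3 each). As a share of CPM, the scale on which Hk3 was called, Hk3 did not overlap, at 45.2, 38.4 and 38.2% in Tet2 KO against 25.9, 37.8 and 30.5% in Tet2 WT, and on protein-coding transcripts it overlapped.

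The lactate side of the pathway separated in share. Slc16a1 made up 17.2, 11.1 and 13.1% of the 2 lactate transporters among the members in Tet2 KO against 29.9, 26.2 and 24.7% in Tet2 WT, and Slc16a3 the rest. Another monocarboxylate transporter gene, Slc16a7, is no member and not in this sum, at 71.0 ± 12.5 CPM in Tet2 KO against 56.6 ± 12.5 CPM in Tet2 WT (SD, n = 3 each), without a call. Ldha made up 96.8, 97.8 and 97.2% of lactate dehydrogenase TPM in Tet2 KO against 91.2, 94.6 and 93.3% in Tet2 WT. Eno1 and Aldoa held nearly all of the TPM of their families' members in this set. On average Eno1 was at 99.8% in Tet2 KO against 99.1% in Tet2 WT, a share taken without Eno3. Aldoa was at 99.1% in Tet2 KO against 99.7% in Tet2 WT on average. Egln1 made up 97.3, 90.8 and 98.9% of the 2 prolyl hydroxylases among the members in Tet2 KO against 65.4, 74.5 and 78.1% in Tet2 WT. The prolyl hydroxylase gene Egln2 is not in this sum either, at 57.7 ± 7.36 CPM in Tet2 KO against 43.7 ± 3.73 CPM in Tet2 WT (SD, n = 3 each), without a call. The Hif1a share of the HIF alpha subunits narrowly overlapped in TPM, at 97.5, 91.9 and 95.3% in Tet2 KO against 84.8, 92.0 and 88.2% in Tet2 WT. It did not overlap on protein-coding transcripts, at 97.0, 90.8 and 94.3% in Tet2 KO against 82.5, 90.6 and 86.5% in Tet2 WT, nor as a share of CPM. Pfkfb3 overlapped too, at 32.4% ± 6.43 in Tet2 KO against 40.6% ± 1.85 in Tet2 WT, and turned round on protein-coding transcripts alone, at 60.1% ± 1.53 in Tet2 KO against 53.0% ± 3.2 in Tet2 WT (SD, n = 3 each).

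**Figure D2:**
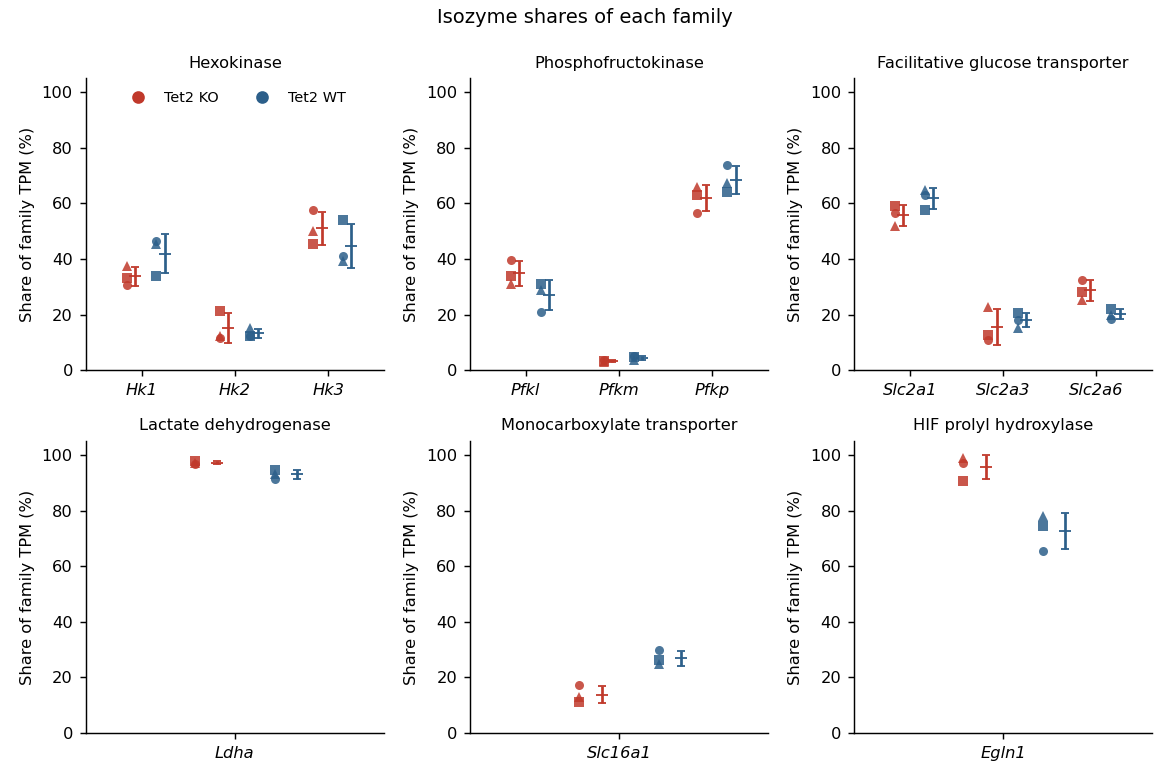
Share of a family's TPM (%, vertical axis), summed over its members in this set, held by each named member in 6 families. Tet2 KO is red (left of each pair) and Tet2 WT blue (right). Each library has 1 symbol (circle, square and triangle for replicates 1, 2 and 3), with the mean ± SD beside it. In 2-gene families 1 member is drawn; Slc16a1 lies lower and Egln1 and Ldha higher in every Tet2 KO library, while the hexokinase points overlap.

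The sensing side of the hypoxia response showed few calls. Hif1a, the alpha subunit of HIF-1, had 124, 105 and 102 CPM in Tet2 KO against 87.7, 99.5 and 102 CPM in Tet2 WT, which overlapped (0.19 ± 0.13, edgeR adjusted p = 0.387). HIF-1 alpha is controlled mainly through its protein, which these data do not measure. Epas1, which encodes HIF-2 alpha, had 4.58, 12.8 and 7.30 CPM in Tet2 KO against 22.2, 12.4 and 19.1 CPM in Tet2 WT. Tet2 KO replicate 2 exceeded Tet2 WT replicate 2, and Epas1 was not called (-1.12 ± 0.37, edgeR adjusted p = 0.0711). Egln1 encodes PHD2, the main oxygen sensor among the prolyl hydroxylases, and had 44.1, 11.3 and 14.8 CPM in Tet2 KO against 12.5, 11.4 and 12.0 CPM in Tet2 WT. Tet2 KO replicate 1 alone stood apart, and Egln1 was not called (0.96 ± 0.46, edgeR adjusted p = 0.212). Egln3 (chr12:54178981-54203860, minus strand) encodes PHD3, an inducible hydroxylase, and was at 0.893, 0.836 and 0.115 CPM in Tet2 KO against 4.79, 2.84 and 2.45 CPM in Tet2 WT. Egln3 fell by 2.46 (log2, SE 0.66, edgeR adjusted p = 0.0325), with the call lost without Tet2 KO replicate 1 or without any 1 Tet2 WT library (between 0.054 and 0.138). It was the member with the lowest mean level in Tet2 KO, at 0.615 CPM.

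Of the 6 other hypoxia-induced genes, 2 fell and 4 were not called. Adm (chr7:110627661-110629820, plus strand) encodes the vasodilator peptide adrenomedullin. It was at 5.73, 3.11 and 4.77 CPM in Tet2 KO against 46.0, 24.0 and 27.2 CPM in Tet2 WT. Every Tet2 WT library was far above every Tet2 KO library, and Adm fell by 2.84 (log2, SE 0.31, edgeR adjusted p = 0.000364, at most 0.00214 with any 1 library left out). Ndrg1 (chr15:66929318-66969640, minus strand), a stress-induced gene known from differentiation and hypoxia, was at 14.7, 15.5 and 16.1 CPM in Tet2 KO against 36.9, 19.4 and 32.3 CPM in Tet2 WT. Ndrg1 fell by 0.94 (log2, SE 0.23, edgeR adjusted p = 0.02), and the call was lost without Tet2 KO replicate 1 or 3 or Tet2 WT replicate 1 or 3 (between 0.0622 and 0.104).

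The rest of the hypoxia-induced genes overlapped between the groups. Bnip3, a mitophagy receptor, had 82.9, 43.1 and 57.6 CPM in Tet2 KO against 41.8, 46.5 and 49.6 CPM in Tet2 WT (0.41 ± 0.22, edgeR adjusted p = 0.253). Ankrd37, an ankyrin repeat gene, had 9.54, 6.26 and 7.83 CPM in Tet2 KO against 4.69, 7.33 and 7.02 CPM in Tet2 WT (0.31 ± 0.27, edgeR adjusted p = 0.52). For both, Tet2 KO replicate 1 was the highest library. Mxi1, a MYC antagonist, ranged from 36.6 to 52.7 CPM in Tet2 KO and from 47.3 to 70.1 CPM in Tet2 WT (-0.25 ± 0.19, edgeR adjusted p = 0.462). P4ha1, the collagen prolyl hydroxylase subunit, ranged from 141 to 193 CPM in Tet2 KO and from 173 to 225 CPM in Tet2 WT (-0.22 ± 0.16, edgeR adjusted p = 0.42).

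**Figure D3:**
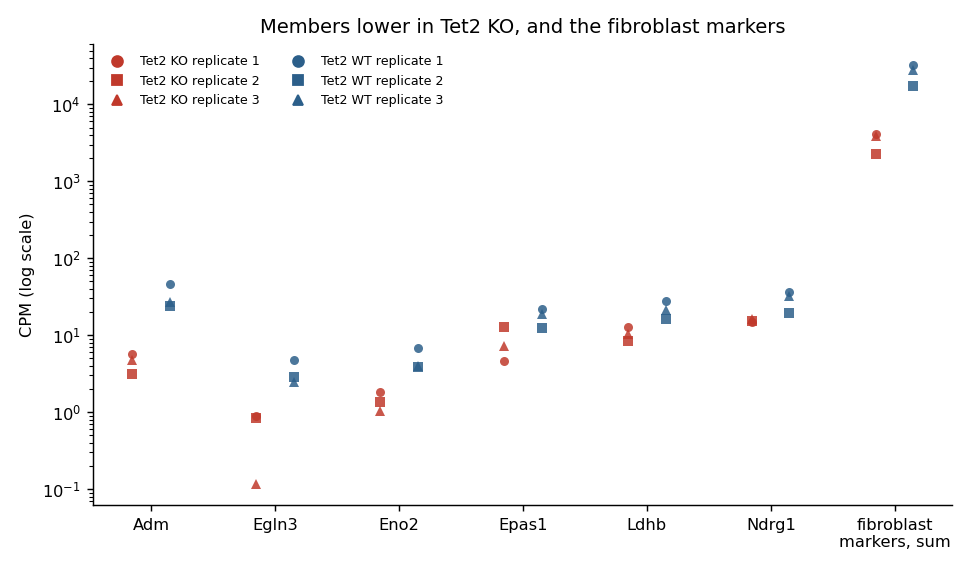
CPM on a log axis in each library for the 5 members called lower, for Epas1 and for the summed fibroblast markers, with Tet2 KO in red on the left and Tet2 WT in blue on the right and a symbol per replicate. Tet2 WT replicate 1 (blue circle) is the highest Tet2 WT point throughout, from 4.79 CPM for Egln3 to 32500 CPM for the fibroblast markers.

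The fibroblast markers were lower in Tet2 KO alongside the members that fell. In Tet2 WT replicate 1, which had the highest fibroblast sum of all libraries (32500 CPM), Adm, Egln3, Eno2, Ldhb, Ndrg1 and Epas1 also had their highest value, as the plot of lower members shows. Within Tet2 KO the fibroblast sum was highest in replicate 1 and lowest in replicate 2. Adm and Ldhb had that order too, whereas Epas1 was highest in Tet2 KO replicate 2, Ndrg1 lowest in replicate 1, and Egln3 and Eno2 lowest in replicate 3. The fibroblast sum was 3460 ± 1030 CPM in Tet2 KO against 25800 ± 7780 CPM in Tet2 WT (SD, n = 3 each), and no fibroblast marker was at 0 in all libraries of a genotype. Gsn and Dcn made up most of that sum, at TMM-normalised means of 2270 and 693 CPM in Tet2 KO against 13400 and 5240 CPM in Tet2 WT. The pericyte and smooth muscle markers were lower as well, at 59.8, 65.9 and 34.5 CPM in Tet2 KO against 195, 132 and 209 CPM in Tet2 WT, while the endothelial markers overlapped at 161 to 265 CPM in Tet2 KO against 198 to 436 CPM in Tet2 WT. The part of these cells in the lower members was not tested. With the fibroblast level as a covariate in edgeR, 0 of 16386 genes were called, and at an unadjusted p under 0.05 there were 978 genes and 0 members. The fibroblast sum did not overlap between the genotypes, so this fit could hardly separate the covariate from genotype. Its SE was 0.86 for Adm and 3.23 for Egln3, against 0.31 and 0.66 without the covariate.

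The pan-macrophage markers were higher in Tet2 KO alongside the members that rose. The pan-macrophage sum was 36100 ± 3250 CPM in Tet2 KO against 24700 ± 3740 CPM in Tet2 WT (SD, n = 3 each). Its ratio of 1.47 rests on each library's own total, without TMM scaling. With TMM scaling, as used for the members, the middle value over the single markers was 0.74 (log2). The 8 risen members ran from 0.70 to 1.52 on that scale. Hk3, Pfkl, Eno1 and Pfkfb3 lay just below 0.74, and Slc2a6, Pfkfb4, Slc16a3 and Aldoc above it. Lyz2 made up most of the pan-macrophage sum, at TMM-normalised means of 22000 CPM in Tet2 KO against 13700 CPM in Tet2 WT. Scaling to the sum thus rests largely on this gene. The Lyz2 call (0.68, edgeR adjusted p = 0.0445) was lost without Tet2 KO replicate 1 or 3 or Tet2 WT replicate 1 or 3. Tet2 WT replicate 1, which had the lowest sum, also had the lowest value of each of the 8. Within Tet2 KO the sum was highest in replicate 1 and lowest in replicate 2, as were Hk3, Pfkl, Eno1 and Pfkfb4, but not Aldoc, Slc2a6, Slc16a3 or Pfkfb3. Scaled to that sum, edgeR called 0 members higher, with 0 at an unadjusted p under 0.05, and 17 lower, beside 0.116% of all tested genes called higher and 43.5% called lower. That scaling moved the median of all tested genes to -0.71 and the members' median to -0.47, so the members' median stayed above that of all genes. Of the risen members, Pfkl and Eno1 changed sign (-0.02 and -0.01), Hk3 and Pfkfb3 came to 0.01 and 0.00, and Slc2a6, Slc16a3, Pfkfb4 and Aldoc stayed above 0 (0.16, 0.21, 0.16 and 0.86) without a call. The 5 members that fell did so in both scalings. Of the other marker lists, 2 did not overlap, the erythroid list at 466 ± 219 CPM in Tet2 KO against 128 ± 120 CPM in Tet2 WT and the Schwann cell list at 87.3 ± 6.42 CPM in Tet2 KO against 69.8 ± 2.97 CPM in Tet2 WT (SD, n = 3 each). The neutrophil, B cell, and T and NK cell sums overlapped.

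**Figure D4:**
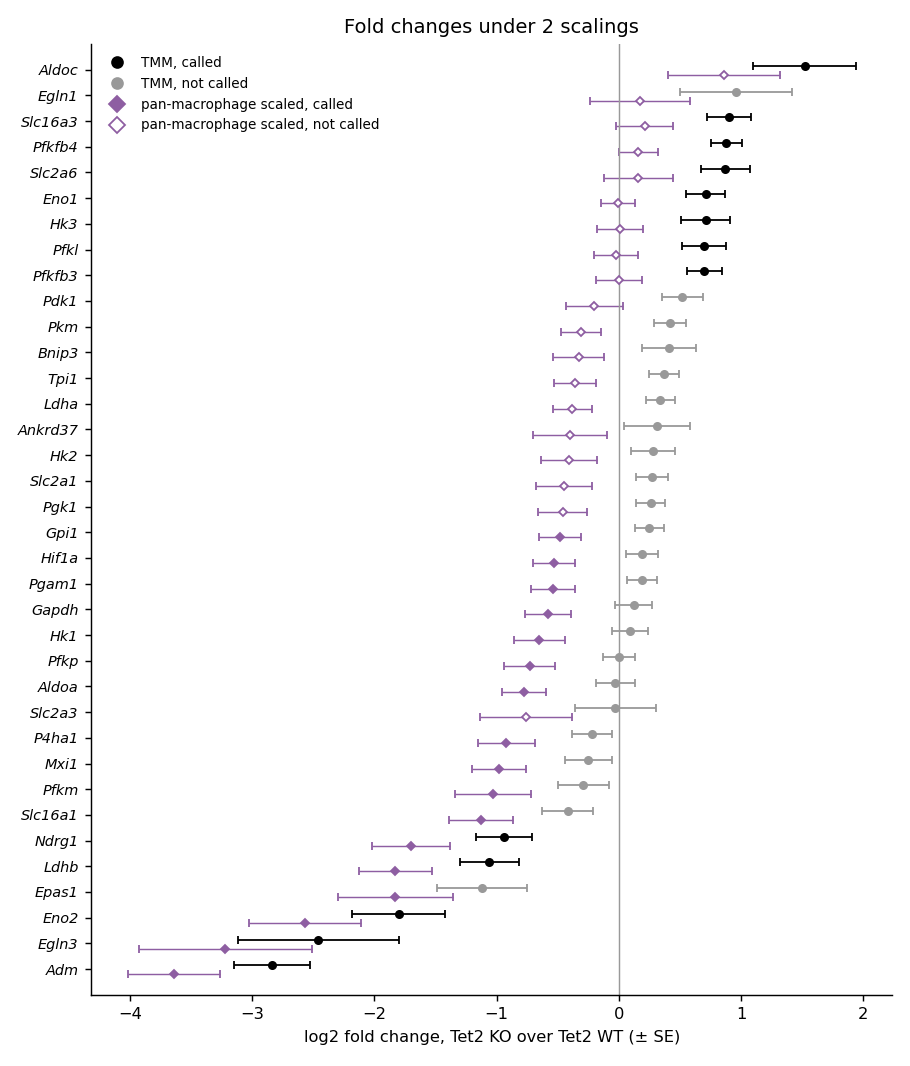
Log2 fold change, Tet2 KO over Tet2 WT, with its SE for the 36 members under TMM scaling (circles; black where called at an edgeR adjusted p under 0.05, grey where not) and under scaling to the summed pan-macrophage markers (purple diamonds; filled where called). The purple points lie to the left of the circles by about the shift of all genes, whose median was -0.71. Of the purple points 0 are called higher and 17 lower, beside 0.116% and 43.5% of all tested genes.

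The replicate 1 libraries of both genotypes differed from the others in fragment length, as read from the median gap between a transcript's length and its effective length. The gap was 188.6 bases in Tet2 KO replicate 1 and 199.9 bases in Tet2 WT replicate 1, against 179.3 to 181.2 bases in the other 4 libraries. Tet2 KO replicate 1 was the highest of the Tet2 KO libraries in 24 of the 36 members, a count not made over all tested genes. With both replicate 1 libraries left out, which leaves 2 against 2, edgeR called 1 member higher (Pfkfb4) and 2 lower (Adm and Ldhb). Over all genes that fit called 1188 in either direction, against 2653 with all libraries.

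Genes of neighbouring pathways were counted for comparison, without the 36 members. Of 33 other glycolysis and pyruvate genes tested, 1 rose and 3 fell (median 0.09 on the log2 scale), beside 6.11% of all tested genes called higher and 10.1% called lower. The rise was Emb, embigin, a chaperone of monocarboxylate transporters, at 193 ± 36.9 CPM in Tet2 KO against 104 ± 25.1 CPM in Tet2 WT (0.89 ± 0.20, edgeR adjusted p = 0.014). Its call was lost without Tet2 WT replicate 1 or 3, and scaled to the pan-macrophage markers it stood at 0.18. The falls were Pdk4, a pyruvate dehydrogenase kinase, at 3.05 ± 0.683 CPM in Tet2 KO against 12.5 ± 4.09 CPM in Tet2 WT (-2.04), the glucose transporter gene Slc2a10 (-2.43), and Slc2a13, which encodes a myo-inositol transporter and was near the detection limit, at 0.0453 CPM on average in Tet2 KO against 0.950 CPM in Tet2 WT, its call being lost without Tet2 KO replicate 3 or Tet2 WT replicate 1. In the pentose phosphate pathway, which branches off at glucose 6-phosphate and yields NADPH, 3 of 7 genes rose: G6pdx by 0.44, Pgd by 0.45 and Tkt by 0.40 (edgeR adjusted p 0.0462, 0.0244 and 0.043). Leaving out 1 library at a time lost each of these calls at least 4 times in 6, and scaled to the pan-macrophage markers the values were -0.28, -0.26 and -0.32. Of 16 tricarboxylic acid cycle genes edgeR called 0 in either direction, with 4 higher and 0 lower at an unadjusted p under 0.05 and a median of 0.20; limma voom also called 0, and DESeq2 called 1 higher.

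Other genes of the hypoxia pathway mostly fell where they were called. Of 45 tested, 1 rose and 12 fell, with a median of -0.10, beside 6.11% of all tested genes called higher and 10.1% called lower. The 4 with the smallest p were Loxl2, a collagen crosslinking enzyme, at 5.51 ± 1.35 CPM in Tet2 KO against 66.4 ± 15.6 CPM in Tet2 WT (-3.60 ± 0.24), the collagen lysyl hydroxylase Plod2 (-3.29 ± 0.27), the peptide-amidating enzyme Pam (-2.55 ± 0.25), and Vegfa, the angiogenic factor, at 3.39 ± 1.03 CPM in Tet2 KO against 17.2 ± 2.98 CPM in Tet2 WT (-2.34 ± 0.27). The SDs are over n = 3 libraries each and the edgeR adjusted p lay between 8.66e-05 and 0.000408. Loxl2 and Plod2 modify collagen and are expressed by fibroblasts, and the fibroblast markers had a median log2 fold change of -3.01. The part of fibroblast RNA in these falls was not tested. The rise was Cited2, a HIF-1 inhibitor, at 137 ± 22.2 CPM in Tet2 KO against 75.1 ± 13.2 CPM in Tet2 WT (0.87 ± 0.17, edgeR adjusted p = 0.00724). With pan-macrophage scaling Cited2 stood at 0.15.

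**Figure D5:**
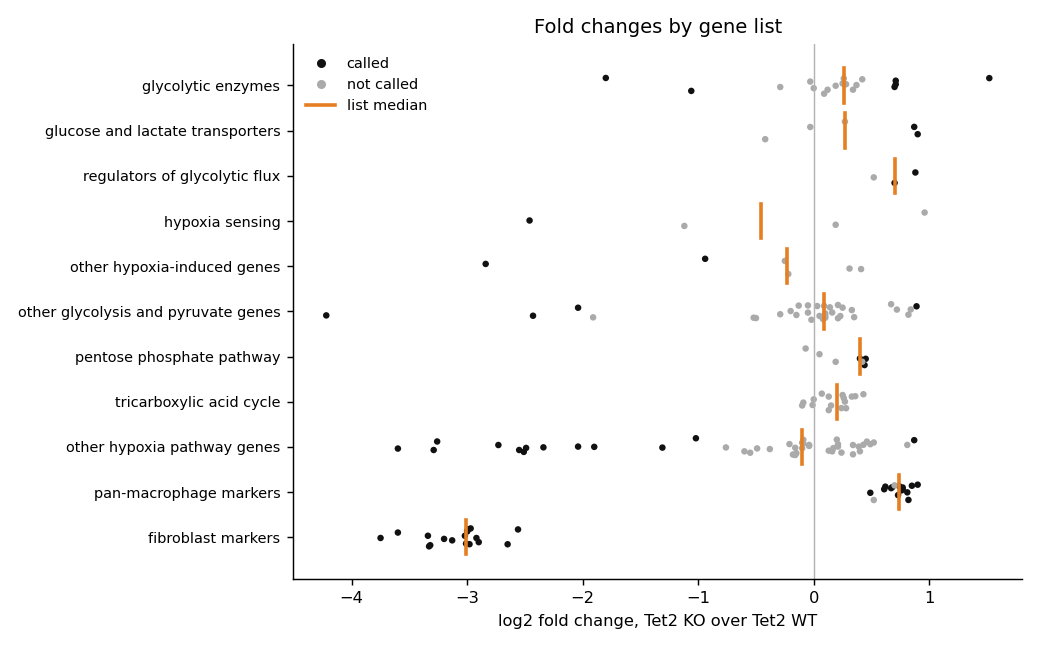
Log2 fold change, Tet2 KO over Tet2 WT, of every tested gene (points; black where called) in the 5 groups of members, 4 neighbouring pathway lists and 2 marker lists, with each list's median as an orange bar. Flux regulators (median 0.70) lie close to the pan-macrophage markers (0.74). The hypoxia sensing (-0.46) and hypoxia-induced (-0.23) groups spread to the left, and the fibroblast markers lie around -3.01. Scaling to the pan-macrophage markers shifts the median of all genes to -0.71 and leaves no member called higher, beside 0.116% of all tested genes.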

How the data were processed

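RNA of sorted cardiac macrophages was measured in 6 libraries, 3 Tet2 KO and 3 Tet2 WT, grouped by their titles. The submitters' processing notes name Trim Galore 0.6.4 for trimming, kallisto 0.44.0 for assigning reads to transcripts, and the GRCm38 build. Per the file headers, the authors deposited an estimated count and a TPM value for each transcript, with its length and effective length; the deposited counts carry no normalization, and TPM as deposited sums to 1 total per library. Which annotation release was used is not stated there. Of 118783 transcripts, 116622 (98.2%) matched GENCODE M21 by identifier without version, and the 2161 others, at most 0.671% of a library's counts, were left out. The 36 members and the other lists were chosen with earlier results of these data known.

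Estimated counts were summed per gene, rounded to whole numbers, filtered with filterByExpr and, after TMM scaling, compared by edgeR 4.0.16 (quasi-likelihood, robust, genotype as the only term; R 4.3.3), with Benjamini-Hochberg adjustment over 16386 genes. CPM values are TMM-normalized, except marker sums, which use each library's own total. Isozyme shares, the Pkm share, step sums and marker sums were compared with exact permutation tests over the 20 label assignments (SciPy 1.17.1). On data simulated for this comparison over 16044 genes, the edgeR test made 5.88% false calls. It called 6% of the genes changed 1.5-fold, 48% of those changed 2-fold and 82% of those changed 4-fold. Far fewer genes were changed in the simulation than were called here, so these shares need not hold for the data. No pair of libraries of a genotype agreed within sampling noise (chi-square per gene at least 69.4). The authors' kallisto step divided reads shared between near-identical genes by a model, so genes with pseudogene copies are uncertain. Alternatives were RLE and upper-quartile scaling, no filter and a stricter one (5 CPM in 3 libraries), each library left out, a replicate block, length-scaled TPM counts, DESeq2 1.42.0, limma 3.58.1 (voom, log2(TPM + 1) and log2(TPM + 0.1)), pan-macrophage scaling, a fibroblast covariate, and both replicate 1 libraries left out. All 36 members are named. Other lists are given as counts, naming at most the 4 genes of smallest p and the family relatives Slc16a7, Egln2, Slc2a8 and Eno3. Cited2, the only rise in its list, was named after its value was seen.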

Additional observations from a re-analysis of the deposited data

How the results depend on the processing

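Limits: 3 libraries per genotype, whose animals are not given, a fibroblast and a pan-macrophage difference that run with genotype, and reads shared with pseudogenes. Genes changed 1.5-fold were called in 6% of simulated cases, where far fewer genes changed than were called here. That share need not hold for these data, and uncalled members may still differ. RLE and upper-quartile scaling, no filter, DESeq2 and limma voom called 8 to 10 members higher and 5 or 6 lower.

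Among all genes, 2653 were called, against 7143 scaled to the pan-macrophage markers, 0 with the fibroblast covariate, 1188 without both replicate 1 libraries, and 1382 to 3141 with 1 library left out. Members called higher (8) became 2 with log2(TPM + 1), 3 with log2(TPM + 0.1), 0 with pan-macrophage scaling, 0 with the fibroblast covariate, 1 without both replicate 1 libraries, and 3 to 10 with 1 library left out. Members called lower (5) became 3 with the stricter filter, 17 with pan-macrophage scaling, 0 with the covariate, 2 without both replicate 1 libraries, and 1 to 6 with 1 library left out. Of the single libraries left out, Tet2 WT replicate 1 gave the fewest calls of either kind (3 and 1). The stricter filter left out Eno2 and Egln3, which did not reach 5 CPM in 3 libraries, so their calls were not tested there. The cause of the other moves was not tested, except that fewer libraries entered some fits.

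Pan-macrophage scaling turned the log2 fold change round for Hk1 (-0.65), Hk2 (-0.41), Gpi1 (-0.48), Pfkl (-0.02), Tpi1 (-0.36), Gapdh (-0.58), Pgk1 (-0.46), Pgam1 (-0.54), Eno1 (-0.01), Pkm (-0.31), Ldha (-0.38), Slc2a1 (-0.45), Pdk1 (-0.20), Hif1a (-0.53), Bnip3 (-0.33) and Ankrd37 (-0.40). The fibroblast covariate did so for Hk2 (-1.14), Hk3 (-0.15), Pfkm (0.32), Aldoa (1.23), Aldoc (-1.75), Gapdh (-0.86), Ldhb (1.36), Slc2a3 (1.45), Slc16a3 (-0.21), Mxi1 (0.83), Adm (0.51) and Ndrg1 (0.87), each with an edgeR adjusted p of at least 0.747. That covariate ran with genotype and widened the SEs (Adm 0.86, against 0.31 without it), so these signs are poorly determined. Hk1 came to -0.07 with both TPM fits and ranged from -0.01 (no Tet2 WT replicate 2) to 0.22 with 1 library left out, and Gapdh came to -0.05 with both TPM fits and ranged from -0.01 (no Tet2 KO replicate 2) to 0.21. Aldoa ranged from -0.20 to 0.11 with 1 library left out, above 0 where that was Tet2 KO replicate 2 (0.11) or Tet2 WT replicate 1 (0.04). Slc2a3 reached 0.14 with length-scaled counts, 0.28 without both replicate 1 libraries, and ranged from -0.49 to 0.18 with 1 library left out, above 0 where that was Tet2 KO replicate 1 (0.18), Tet2 KO replicate 2 (0.13) or Tet2 WT replicate 1 (0.08). Ankrd37 came to -0.02 without both replicate 1 libraries. The Hk2 share turned to -0.66 percentage points in CPM, -0.519 on protein-coding transcripts and ranged from -1.20 (no Tet2 KO replicate 2) to 3.67 with 1 library left out, and the Pfkfb3 share to 7.13 on protein-coding transcripts.

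The replicate numbers share no stated pairing. Deviations of same-numbered libraries correlated at 0.08, 0.17 and 0.06 over 16386 genes, and Tet2 KO replicate 3 correlated best with Tet2 WT replicate 1 (0.07). With the replicate block, 2347 genes were called, 6 members higher and 5 lower; Hk3 (adjusted p = 0.0794) and Pfkl (0.0663) lost the call in edgeR and no other member's call changed.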
